A study of Mus musculus with 6 samples.

Results

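The DNA replication and S-phase genes described here are 38 genes named in a list, out of 47729 genes counted in each library. They encode proteins that license origins, start and run the replication fork, join the new strands, supply nucleotides, drive entry into S phase and copy DNA methylation. All 38 were matched by symbol to a mouse gene identifier, and all 38 passed the filter on low counts that left 18174 genes for testing. RNA was sequenced from FACS-sorted DN1a/b cells, an early progenitor fraction of the thymus, of C57BL/6 mice. Control mice kept expression of RBPJ throughout, RBPJ uninduced mice lacked it, and RBPJ 6 days induced mice lacked it at first and then received doxycycline, injected at 2 mg/ml and afterwards given in drinking water at 1 mg/ml, for 6 days. Each of the 3 groups has 2 libraries. The sources used here do not give the alleles, the promoter behind the inducible RBPJ, the ages of the mice or any doxycycline given to the other groups. Whether the libraries in a group are from different mice is not labelled, and p-values therefore cover only the spread among these libraries, which may be technical.

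RBPJ is the DNA-binding protein through which the activated Notch receptor turns on its target genes, and Notch signalling commits thymic progenitors to the T lineage. Early thymic progenitors divide repeatedly before commitment. In each division the origin recognition complex, CDC6 and CDT1 load the MCM helicase on DNA, and cyclin E with CDK2 and E2F transcription factors then start S phase. E2F factors bind the promoters of many replication genes, and the genes that they drive peak together around the entry into S phase.

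Because E2F sites are the textbook feature of such promoters, the stretches upstream of 6 members are shown. RefSeq promoter windows on GRCm38.p6 (250 bases before to 50 bases after a start site) were matched by symbol for 32 of the 38 members. The letters searched were TTTCGCGC, TTTGGCGC, TTTCCCGC and TTTGCCGC, on both strands, where overlapping matches were each counted. The first 3 sequences below hold such matches, in capitals. They lie upstream of Mcm6, which has the most matches (3, of which 2 overlap), of Mcm5, with 2 overlapping matches, and of Pola1, with 1. The other 3 lie upstream of Mcm2, Mcm10 and Rrm1, members called in both main comparisons below, and hold none. They do not stand for all members called in both. Of the rest of these, Cdc6 and Cdt1 hold such letters in their windows and Rrm2 does not. Uhrf1, which has 1 match in a stretch outside exons, is not shown. Each is 80 bases long, lies outside annotated exons, and is written from 5′ to 3′ on the strand of the gene.
Mcm6, chr1:128359741-128359820, minus strand: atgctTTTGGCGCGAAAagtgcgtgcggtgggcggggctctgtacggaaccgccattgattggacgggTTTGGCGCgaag
Mcm5, chr8:75109322-75109401, plus strand: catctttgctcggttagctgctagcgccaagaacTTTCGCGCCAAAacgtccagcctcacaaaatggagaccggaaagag
Pola1, chrX:93632250-93632329, minus strand: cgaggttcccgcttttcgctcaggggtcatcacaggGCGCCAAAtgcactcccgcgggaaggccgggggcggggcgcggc
Mcm2, chr6:88898781-88898860, minus strand: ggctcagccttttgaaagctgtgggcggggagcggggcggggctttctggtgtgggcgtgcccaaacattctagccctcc
Mcm10, chr2:5012792-5012871, minus strand: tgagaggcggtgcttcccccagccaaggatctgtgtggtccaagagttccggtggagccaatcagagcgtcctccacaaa
Rrm1, chr7:102441615-102441694, plus strand: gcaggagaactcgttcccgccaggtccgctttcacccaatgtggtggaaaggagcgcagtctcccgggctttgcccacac

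Any of these E2F letters occurred in the windows of 14 of the 32 member genes (43.8%), against 2.6% of all 27025 genes with a window. CCAAT, the letters bound by NF-Y, occurred in 62.5% of member genes and 41.1% of all genes. TGGGAA, the core letters bound by RBPJ, occurred in 37.5% of member genes and 28.3% of all genes. TTTGAA and TTCGAA, core letters of the cell cycle homology region found in many mitotic promoters, occurred in 21.9% of member genes and 21.7% of all genes. A match is a description of the letters in a window and does not show that a factor binds there.

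The exons of 14 members overlap those of another gene, and without a known strand setting some of their reads cannot be assigned. Library totals ranged from 5098927 to 12932928 counts, and the members took 18059 to 54467 counts, or 0.318% to 0.625% of a library. Rbpj, the gene under control, stood at 74.1 and 72.9 CPM (counts scaled to a common library size) in the Control libraries, 28.2 and 30 in the uninduced and 198 and 203 in the induced libraries. It was lowest in the uninduced libraries, where its reads did not disappear (whether the deleted part holds the counted exons is not given), and it exceeded the Control level after induction (log2 fold change 1.45, SE 0.18, adjusted p = 0.0175). Of the markers of the sorted population, Kit ranged from 372 to 631 CPM and Cd44 from 196 to 390 CPM, so both were present in every library. Notch1, also a marker of these cells, was at 924 and 782 CPM in Control, 97.7 and 68.8 in uninduced and 520 and 484 in induced libraries. Some libraries stood apart on markers of other cells. Control 2 held Cd8a at 80 CPM, against 1.22 to 3.2 in the other 5 libraries, and RBPJ uninduced 2 held Pax5, the B cell factor, at 249 CPM, against 0 to 11.6 in the others. Results are therefore also given without each of these libraries.

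The first question was how the replication genes stand in cells that lack RBPJ. All 38 members had a higher mean in RBPJ uninduced than in Control libraries, and 13 of them passed the test across all genes (edgeR quasi-likelihood test, Benjamini-Hochberg adjusted p under 0.05). None was lower. Across all genes tested, 2.49% were called higher and 2.93% lower in this comparison. The members' median log2 fold change was 0.76, with a range from 0.16 to 2.63, where the median of all genes was −0.02. Both uninduced libraries exceeded both Control libraries for 35 members, an ordering found in 22.1% of all genes tested, and the opposite ordering, found in 22.2%, occurred in no member. Summed over the 38 members, the level was 3805 and 3195 CPM in Control, 5539 and 6070 in uninduced and 3466 and 3328 in induced libraries.

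The second question was how they stood after 6 days of RBPJ induction. Doxycycline is labelled only for the induced group, so the return of RBPJ and the drug itself cannot be told apart. Every member had a lower mean in induced than in uninduced libraries, and 9 passed the test as lower. None was called higher. Among all genes tested 0.413% were called lower and 1.55% higher. The median log2 fold change of the members was −0.92, with a range from −2.08 to −0.29, and that of all genes was −0.03. For all 38 members both induced libraries lay below both uninduced libraries, an ordering seen in 21.8% of all genes, while 24.8% of all genes had the reverse ordering. These comparisons share the uninduced libraries, so the rise and the fall of a member are not independent of each other.

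**Figure D1:**
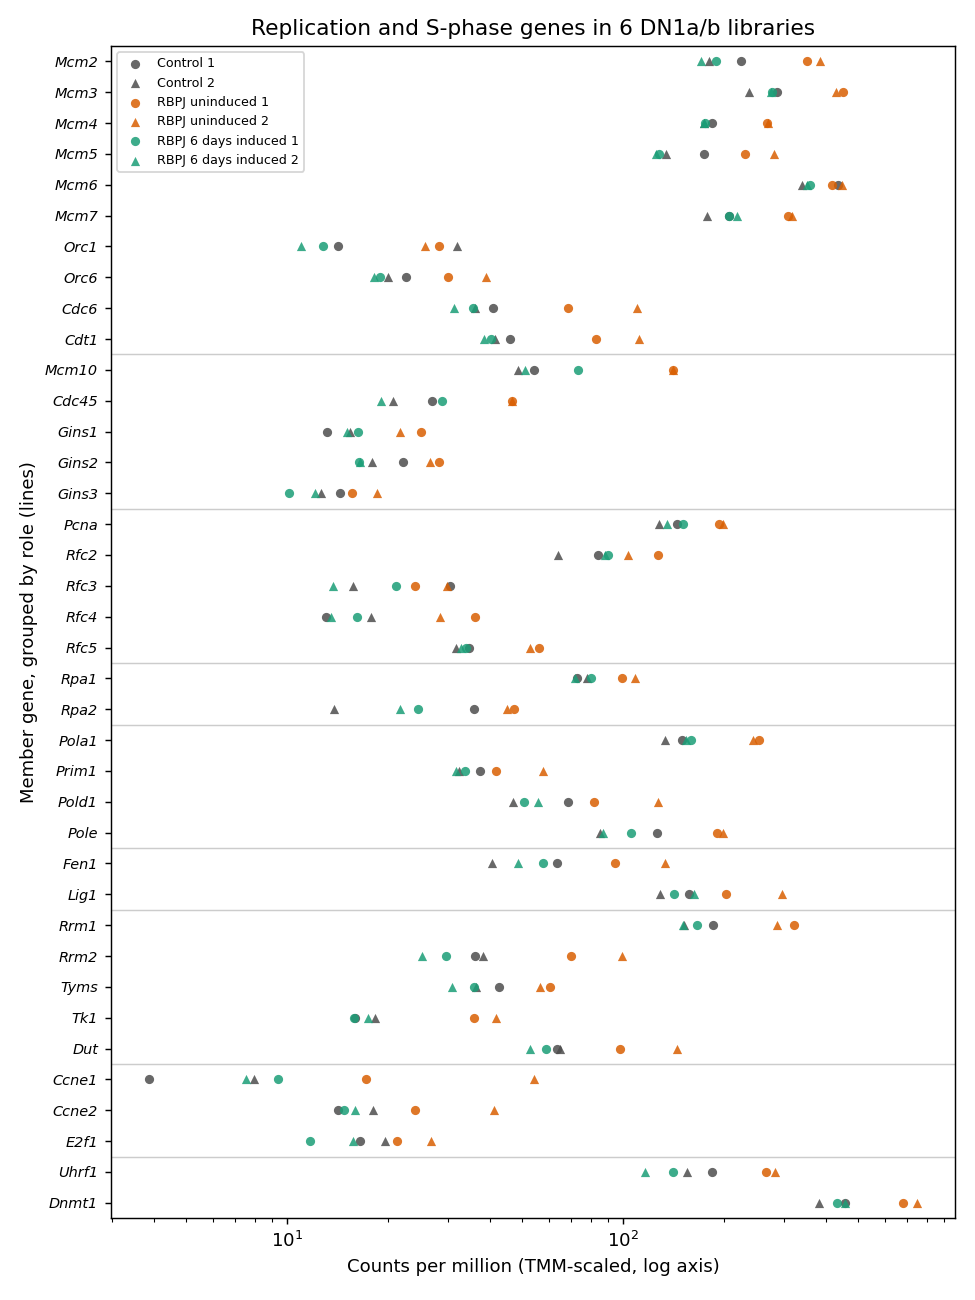
Level of each of the 38 members (vertical axis, grouped by role) in CPM on a log axis, 1 point per library, with colour for the group and shape for the replicate number. The uninduced points lie to the right of the other 4 libraries for all members except Mcm6, Orc1 and Rfc3.

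After induction the members were near the Control level. No member was called in either direction between induced and Control libraries by edgeR, where 0.187% of all genes were called higher and 0% lower. At an unadjusted p under 0.05 there was 1 member, Orc1 (log2 fold change −0.94, SE 0.41, adjusted p = 0.927), against 940 of all 18174 genes tested. DESeq2 called 0 members, where it called 179 of all 18174 genes higher and 49 lower. The log2 fold changes ran from −0.94 to 0.55 with a median of −0.09, above 0 in 14 members and below 0 in 24. Both induced libraries were above both Control libraries for 2 members, Rfc2 and Pola1, against 20.8% of all genes, and below both for 12 members, against 16.8% of all genes. With 2 libraries a group, a p above the threshold does not show that the levels were the same.

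**Figure D2:**
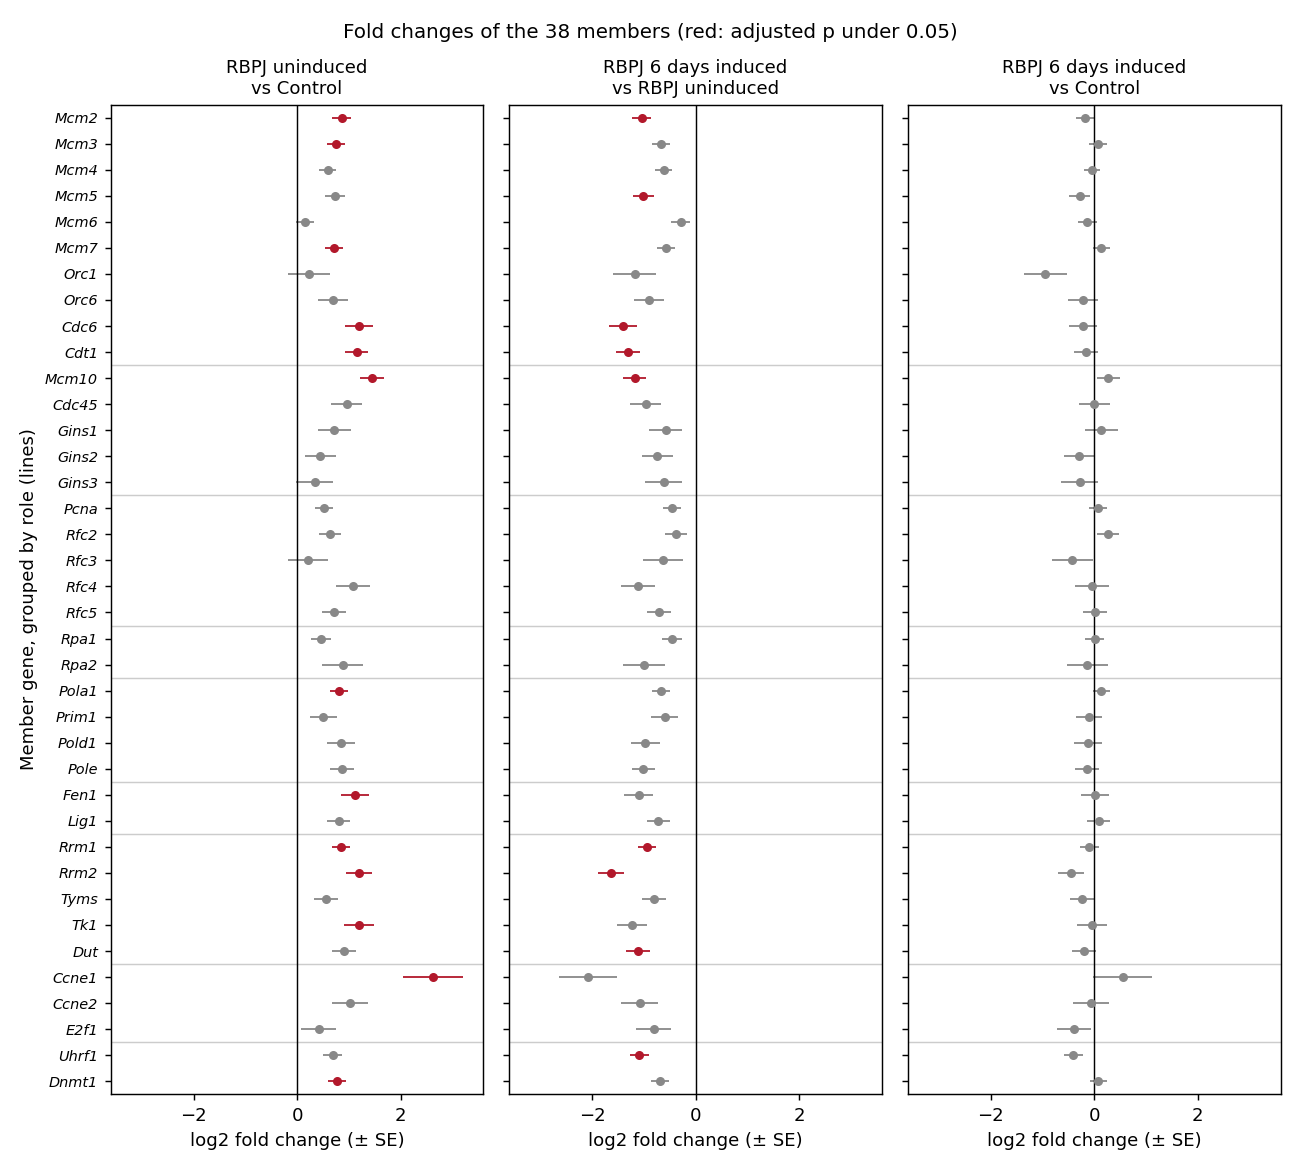
Log2 fold change with its standard error for each member in the 3 comparisons, with red for an adjusted p under 0.05. All 38 points lie above 0 for uninduced against Control and below 0 for induced against uninduced, and the induced against Control points lie between −0.94 and 0.55.

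Of the 10 members that mark and license origins, 5 rose without RBPJ and 4 fell on induction. The shares of all genes so called were 2.49% and 0.413%. Mcm2, a helicase subunit, stood at 224 and 180.4 CPM in Control, 352 and 385 in uninduced and 188.5 and 169.8 in induced libraries. The uninduced libraries were thus both above all 4 others. Mcm2 rose by 0.86 on the log2 scale (SE 0.18, adjusted p = 0.0273) and fell by 1.04 on that scale (SE 0.18, adjusted p = 0.0259). Mcm3, another subunit, read 287 and 237 CPM, then 452 and 428, then 276 and 275, in the same order of groups. It rose (0.75, SE 0.17, adjusted p = 0.0374), and its difference on induction missed the threshold (−0.67, SE 0.17, adjusted p = 0.0874). Mcm5 read 174 and 134 CPM in Control, 229.7 and 280.2 in uninduced and 128 and 125 in induced libraries. For Mcm5 the fall on induction was called (−1.01, SE 0.20, adjusted p = 0.0369) and the first difference was not (0.73, SE 0.20, adjusted p = 0.0675). Mcm7 read 207 and 178 CPM, then 309.6 and 317, then 206 and 217.5, a rise of 0.71 (SE 0.17, adjusted p = 0.0436). The exons of Mcm7 overlap those of Cops6 and Ap4m1 on the other strand. Mcm4 passed in neither comparison, at 184 and 174 CPM in Control and 269 in each uninduced library (0.59, SE 0.16, adjusted p = 0.0732).

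Mcm6 differed from its partners in the ring. It had the highest level per length of all members in Control, 83.2 in reads per kilobase of exon scaled like the CPM (RPKM, SD 14.8), above Mcm3 at 69.9 (SD 9.50), a gap within the spread between libraries. Mcm6 read 437 and 339 CPM in Control, 419 and 448 in uninduced and 359 and 352 in induced libraries. Its Control and uninduced libraries overlapped, and the difference was the smallest of the 38 (log2 fold change 0.16, SE 0.18, adjusted p = 0.732). Within each library, Mcm6 made up 28.9% and 27.3% of the summed Mcm2 to Mcm7 CPM in Control, 20.6% and 21.1% in uninduced, and 27% and 26.8% in induced libraries. The share of Mcm2 moved the other way, from 14.8% and 14.5% to 17.3% and 18.1% and then 14.1% and 12.9%. These shares do not depend on the scaling between libraries. They were chosen after the values were seen and carry no test. Mcm6 is also the member with the most E2F letters in the sequences above.

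**Figure D3:**
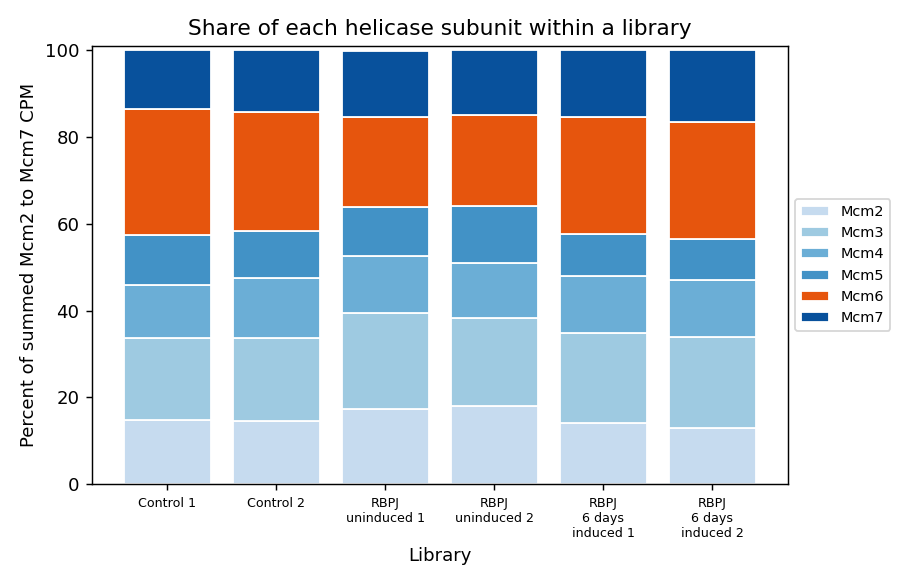
Percent of the summed Mcm2 to Mcm7 CPM taken by each subunit in each of the 6 libraries, as stacked bars. The Mcm6 share (orange) is 20.6% and 21.1% in the uninduced libraries and 26.8% to 28.9% in the other 4.

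The loaders of the ring gave some of the larger changes. Cdc6, which brings the MCM ring to origins, read 41 and 36.3 CPM in Control, 68.5 and 109.6 in uninduced and 35.6 and 31.3 in induced libraries. It rose by 1.20 (SE 0.27, adjusted p = 0.0356) and fell by 1.41 (SE 0.27, adjusted p = 0.035). Cdt1, its partner in loading, read 46.1 and 41.6 CPM, then 82.9 and 111.6, then 40.4 and 38.4. It rose by 1.15 (SE 0.23, adjusted p = 0.0225) and fell by 1.31 (SE 0.23, adjusted p = 0.0259). For both loaders the uninduced libraries lay above the other 4, and RBPJ uninduced 2 was the higher of the pair. Orc1, the largest subunit of the origin recognition complex, had the lowest level per length of the licensing genes in Control, 6.64 RPKM (SD 3.63). It read 14.2 and 32 CPM in Control, 28.2 and 25.7 in uninduced and 12.8 and 11 in induced libraries. Control 2 held its highest value, and neither difference passed (0.23, adjusted p = 0.855, and −1.18, adjusted p = 0.197). Orc6, another subunit, stood at 22.6 and 20 CPM in Control and 30.1 and 39 in uninduced libraries, and passed in neither comparison (0.70, adjusted p = 0.233).

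MCM10, CDC45 and the GINS complex turn the loaded ring into an active helicase. Of these 5 members 1 was called, where 2.49% of all genes were called higher without RBPJ and 0.413% lower on induction. Mcm10 read 54.1 and 48.5 CPM in Control, 140.1 and 140.4 in uninduced and 73.1 and 50.9 in induced libraries. Its uninduced pair agreed closely, while the induced pair spread more. It had the second largest log2 rise of the members, 1.45 (SE 0.23, adjusted p = 0.00803), and fell by 1.18 (SE 0.22, adjusted p = 0.0348). Cdc45 read 27 and 20.7 CPM, then 46.6 and 46.7, then 28.9 and 19, a difference of 0.96 (SE 0.30, adjusted p = 0.109) that missed the threshold. Gins1 had the highest level per length of the 5 in Control, 9.40 RPKM (SD 1.07), and Gins2 the lowest, 4.88 (SD 0.73). Gins1 stood at 13.1 and 15.4 CPM in Control, 25 and 21.7 in uninduced and 16.2 and 15.1 in induced libraries. Gins2 stood at 22.1 and 17.9 CPM, then 28.2 and 26.6, then 16.3 and 16.5. The 3 GINS members had log2 fold changes from 0.34 to 0.72 without RBPJ, and none passed. The exons of Gins2 overlap those of Gse1 over 2758 bases on the other strand.

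The sliding clamp, its loader and the single-strand binding proteins held no called member. Among all genes, 2.49% were called higher without RBPJ and 0.413% lower on induction. Pcna, the clamp that tethers polymerases, had the highest level per length among the clamp genes, 56.7 RPKM (SD 4.86) in Control. It read 144 and 128 CPM in Control, 192.5 and 198 in uninduced and 150.7 and 135 in induced libraries, with uninduced above the other 4 (0.52, SE 0.18, adjusted p = 0.134). Copies annotated as Pcna-ps1 and Pcna-ps2 can share reads with it. Rfc3, a subunit of the clamp loader, had the lowest level per length of these genes, 6.41 RPKM (SD 2.90), at 30.5 and 15.7 CPM in Control, 24 and 29.9 in uninduced and 21 and 13.7 in induced libraries. Its Control libraries spanned the uninduced ones. Of its partners Rfc4 differed most, at 13 and 17.7 CPM in Control and 36.2 and 28.4 in uninduced libraries (1.08, SE 0.33, adjusted p = 0.102). Rfc2 and Rfc5 had log2 fold changes of 0.63 and 0.71 without RBPJ, and neither passed. Rfc2 overlaps Lat2 over 952 bases of exon on the other strand, and Rfc5 overlaps Wsb2 over 499. Rpa1 and Rpa2 encode subunits of the protein that coats single-stranded DNA. Rpa1 had the higher level per length in Control, 13.5 RPKM (SD 0.62), against 8.31 (SD 5.23) for Rpa2. Rpa1 read 72.9 and 77.8 CPM, then 99.1 and 108, then 80.2 and 71.6 (0.46, adjusted p = 0.229). Rpa2 read 35.9 and 13.8 CPM in Control, 47.3 and 45.1 in uninduced and 24.5 and 21.6 in induced libraries, and its Control pair differed 2.6-fold, the widest gap of any member in that group (0.88, adjusted p = 0.282).

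Pola1, the catalytic subunit of the polymerase that starts each new strand, read 149 and 133 CPM in Control, 253 and 243.5 in uninduced and 159 and 153 in induced libraries. It rose by 0.81 (SE 0.17, adjusted p = 0.0262), and the difference on induction missed the threshold (−0.67, SE 0.17, adjusted p = 0.0862). Pola1 had the highest level per length of the polymerase genes in Control, 16 RPKM (SD 1.30), and Prim1, the primase that works with it, the lowest, 9.05 (SD 0.90). Prim1 read 37.5 and 32.5 CPM, then 41.9 and 57.5, then 33.8 and 31.8. Pole and Pold1, the leading- and lagging-strand polymerases, had log2 fold changes of 0.87 (SE 0.23, adjusted p = 0.0584) and 0.85 (SE 0.27, adjusted p = 0.12) without RBPJ. After induction theirs were −1.01 (adjusted p = 0.0613) and −0.97 (adjusted p = 0.12), so neither passed in either comparison. Fen1, the nuclease that trims Okazaki fragments, read 63.5 and 40.7 CPM in Control, 94.6 and 133 in uninduced and 57.8 and 48.6 in induced libraries. It rose by 1.12 (SE 0.28, adjusted p = 0.0481). The exons of Fen1 overlap those of other genes, Tmem258 among them, over 2039 bases on the other strand. Lig1, the ligase that seals the fragments, had the higher level per length, 33.4 RPKM (SD 4.61) against 21.5 (SD 6.66) for Fen1 in Control. It read 157 and 129 CPM, then 203 and 297.5, then 142 and 162, and passed in neither comparison (0.81, adjusted p = 0.0715).

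Of the 5 members that make or guard deoxynucleotides, 3 rose and 3 fell, against 2.49% of all genes called higher and 0.413% called lower. Rrm1, the large subunit of ribonucleotide reductase, read 185 and 152 CPM in Control, 323 and 286 in uninduced and 166 and 151 in induced libraries. It rose by 0.85 (SE 0.18, adjusted p = 0.0293) and fell by 0.94 (SE 0.18, adjusted p = 0.0357). Rrm2, the small subunit, which is made in S phase, read 36.3 and 38.2 CPM, then 70.1 and 99.2, then 29.6 and 25.2. It rose by 1.19 (SE 0.25, adjusted p = 0.0289) and fell by 1.63 (SE 0.25, adjusted p = 0.0161), the largest fall among the called members. For Rrm1 and Rrm2 alike, both uninduced libraries stood above the other 4. Tk1, thymidine kinase, had the lowest level per length of this group, 3.28 RPKM (SD 0.31) in Control, and read 15.9 and 18.2 CPM, then 36 and 41.9, then 15.8 and 17.4. Tk1 rose by 1.19 (SE 0.29, adjusted p = 0.0475), and on induction its difference of −1.23 (SE 0.29) had an adjusted p of 0.0714. Its exons overlap those of Afmid over 83 bases on the other strand. Dut, which removes dUTP, had the highest level per length of the group, 26.7 RPKM (SD 0.30), and read 63.7 and 64.7 CPM, then 97.7 and 144, then 59 and 52.6. Its fall was called (−1.12, SE 0.23, adjusted p = 0.046), while the first difference was not (0.91, SE 0.23, adjusted p = 0.054). Tyms, thymidylate synthase, passed in neither comparison (0.56, adjusted p = 0.227, and −0.81, adjusted p = 0.129), and a pseudogene copy, Tyms-ps, can share its reads.

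Ccne1, cyclin E1, had the widest error of the 38, and the size of its log2 fold changes depended on RBPJ uninduced 2. It read 3.88 and 7.96 CPM in Control, 17.2 and 54.1 in uninduced and 9.36 and 7.55 in induced libraries. The uninduced pair differed 3.14-fold, yet both lay above the other 4 libraries. Ccne1 rose by 2.63 (SE 0.59, adjusted p = 0.0348), and its difference of −2.08 on induction missed the threshold (SE 0.56, adjusted p = 0.109). Without RBPJ uninduced 2 these values were 1.57 (adjusted p = 0.0723) and −1.01, so the rise was no longer called. The rise was also not called without Control 1 (2.21, adjusted p = 0.154) or Control 2 (3.09, adjusted p = 0.0641). Other members lost their calls as well. Over the 14 settings of the fit the rise of Ccne1 was called in 10, where the called members ranged from 4 (Mcm7) to 13 (Mcm10). Ccne1 had the lowest level per length of all members in Control, 2.23 RPKM (SD 1.08). Ccne2, cyclin E2, read 14.2 and 18 CPM, then 24 and 41.1, then 14.8 and 15.9, and passed in neither comparison (1.02, adjusted p = 0.148). Ccne2 overlaps Ints8 over 609 bases of exon on the other strand. The ratio of Ccne1 to Ccne2 CPM, chosen after the values were seen, was 0.273 and 0.441 in Control, 0.717 and 1.31 in uninduced and 0.631 and 0.474 in induced libraries. E2f1, an activator of S-phase genes, had the highest level per length of these 3 genes, 5.70 RPKM (SD 0.66) in Control. It stood at 16.5 and 19.5 CPM in Control, 21.2 and 26.7 in uninduced and 11.7 and 15.7 in induced libraries, and passed in neither comparison (0.42, SE 0.34, adjusted p = 0.588, and −0.81, adjusted p = 0.282).

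Dnmt1, the maintenance DNA methyltransferase, had the highest mean CPM of all members in Control. It read 458 and 382 CPM in Control, 681 and 749 in uninduced and 433 and 456 in induced libraries. Dnmt1 rose by 0.77 (SE 0.17, adjusted p = 0.0319), and the difference on induction missed the threshold (−0.69, SE 0.17, adjusted p = 0.0782). Uhrf1, which recruits DNMT1 to newly copied DNA, read 184 and 155 CPM, then 265.5 and 282, then 141 and 116. Its fall was called (−1.09, SE 0.19, adjusted p = 0.0242), and the first difference was not (0.69, SE 0.18, adjusted p = 0.0654). Per length, Dnmt1 was at 57 RPKM (SD 7.25) and Uhrf1 at 39.8 (SD 4.80) in Control.

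Across roles, the genes called in both comparisons were Cdc6, Cdt1, Mcm2, Mcm10, Rrm1 and Rrm2, 6 of the 38. Another 7 were called only as higher without RBPJ, 3 only as lower on induction, and 22 in neither. Whether the calls differ between these sets was not tested, and every member was above 0 in the first comparison and below 0 in the second. Among all genes, 2.49% were called higher without RBPJ and 0.413% lower on induction, and the share called in both was not counted. RBPJ uninduced 2 held the highest CPM of 26 members and RBPJ uninduced 1 that of 10, while the lowest CPM was in RBPJ 6 days induced 2 for 16 members and in Control 2 for 14. The median fold between the 2 libraries of a group was 1.19 in Control, 1.14 in uninduced and 1.11 in induced. Control 1 was above Control 2 for 28 of the 38 members. Members with E2F letters in their window had a median log2 fold change of 0.74 without RBPJ (n = 14), and those without the letters 0.87 (n = 18). Called as higher were 6 of the former and 7 of the latter. For TGGGAA, the RBPJ letters, the medians were 0.76 with (n = 12) and 0.83 without (n = 20).

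The number of calls depended on single libraries. Without Control 2 no member was called higher in uninduced against Control, 16 had an unadjusted p under 0.05, 36 of 38 kept a log2 fold change above 0, and the median was 0.53. Without Control 1, 3 were called, 37 were above 0 and the median was 0.90. Leaving out RBPJ uninduced 2, which carried the B cell transcripts, left 8 called, all 38 above 0 and a median of 0.67. Without RBPJ 6 days induced 1 or 2, which belong to neither group compared but enter the filter, the scaling and the estimate of spread, 6 were called in each case (medians 0.76 and 0.68). For induced against uninduced, 16 were called lower without RBPJ uninduced 1 and 0 without either induced library, with all 38 still below 0 (medians −0.94 and −0.81 without induced 1 and 2). Fitted on the 4 compared libraries alone, 1 member (Mcm10) was called higher in the first comparison and 0 lower in the second. Scaling by library totals alone left 5 and 3 calls, and it moved the median of all genes by −0.11 in uninduced against Control.

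Other genes of the pathway were taken from 7 lists. Across all genes tested, edgeR called 2.49% higher and 2.93% lower without RBPJ, and 1.55% higher and 0.413% lower on induction. Of 30 further replication genes, 6 rose without RBPJ and 3 fell on induction, with median log2 fold changes of 0.70 and −0.58. Orc2, a core subunit of the origin recognition complex, read 34.9 and 35 CPM in Control, 80.5 and 92.7 in uninduced and 39.3 and 34.4 in induced libraries, a rise of 1.31 (adjusted p = 0.0112) and a fall of 1.23 (adjusted p = 0.0275). Clspn, the checkpoint mediator at the fork, rose by 1.09 (adjusted p = 0.0202), and Dna2, a nuclease-helicase, by 1.17 (adjusted p = 0.023). Both fell by 1.21 on induction, with adjusted p of 0.0259 for Clspn and 0.0357 for Dna2. Of 15 further nucleotide-supply genes, 3 rose and 3 fell (medians 0.58 and −0.66). Cad, which starts pyrimidine synthesis, rose by 1.17 (adjusted p = 0.00887) and fell by 1.20 (adjusted p = 0.0165). Mthfd1, a folate enzyme, rose by 1.45 (adjusted p = 0.0297) and fell by 1.57 (adjusted p = 0.039). Gart, a purine synthesis enzyme, rose by 0.94 (adjusted p = 0.0392), and Shmt2, the mitochondrial serine hydroxymethyltransferase, fell by 1.15 (adjusted p = 0.0357).

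Among 15 E2F, RB and S-phase kinase genes, 2 rose and 1 fell (medians 0.47 and −0.46). E2f8, a repressor in the E2F family, had the smallest p of the list in all 3 comparisons. It read 34.4 and 30.8 CPM in Control, 174 and 171 in uninduced and 70.7 and 65.5 in induced libraries. E2f8 rose by 2.40 (SE 0.20, adjusted p = 0.00044) and fell by 1.34 (SE 0.19, adjusted p = 0.0104), and its induced libraries were both above Control (1.06, SE 0.19, adjusted p = 0.0722). Tfdp1, the dimer partner of E2F proteins, rose by 0.87 (adjusted p = 0.0294). Of 10 chromatin assembly genes 1 rose and 1 fell (medians 0.60 and −0.53), where 2.49% of all genes were called higher and 0.413% lower. In each case the gene was Nasp, a histone chaperone (0.89, adjusted p = 0.0342, and −0.99, adjusted p = 0.0407). Of 15 checkpoint and fork repair genes 2 rose, Blm by 1.09 (adjusted p = 0.0139) and Fancd2 by 1.16 (adjusted p = 0.0489), and 1 fell, Brca1 by 1.15 (adjusted p = 0.0304). Blm encodes a helicase, and the products of Fancd2 and Brca1 act in repair of stalled forks.

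Mitotic genes act after S phase. All 15 had log2 fold changes above 0 without RBPJ and 5 rose (median 0.91), among them Mki67, the proliferation marker, by 0.96 (adjusted p = 0.0196), Aurkb by 1.24 (adjusted p = 0.0367) and Cenpe by 0.79 (adjusted p = 0.037). Aurkb encodes a mitotic kinase and Cenpe a kinetochore motor. Of all genes tested, edgeR called 2.49% higher without RBPJ and 0.413% lower on induction. On induction 0 of the 15 mitotic genes were called by edgeR and their median was −0.75. An unadjusted p under 0.05 was found for 7 of the 15, against 2807 of all 18174 genes tested. Mki67 had the smallest p of the mitotic list on induction (−0.76, adjusted p = 0.0758). D-type cyclins and CDK inhibitors, 10 tested, had medians of −0.11 and 0.14. Of these 0 were called without RBPJ, where 3 of the 10 had an unadjusted p under 0.05, against 3419 of all 18174 genes tested. Ccnd1, cyclin D1, read 23.6 and 32.9 CPM in Control, 57.5 and 52.8 in uninduced and 19.1 and 11.9 in induced libraries, and its fall on induction was called (−1.83, SE 0.32, adjusted p = 0.0259). Between induced and Control libraries no gene of these 7 lists was called by edgeR. The smallest p of each list there belonged to Pole4 (log2 fold change −0.64), Samhd1 (1.03), E2f8 (1.06), Slbp (0.26), Blm (0.63), Cenpe (0.43) and Ccnd1 (−0.86).

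Markers of other cells moved with the same groups. The shares of all genes called by edgeR were 2.49% higher and 2.93% lower without RBPJ, and 1.55% higher and 0.413% lower on induction. In bulk RNA, more cells of a type and more RNA per cell cannot be told apart. T-lineage markers summed to 594 and 954 CPM in Control, 47.1 and 78.9 in uninduced and 387 and 452.5 in induced libraries, and 4 of 9 tested fell without RBPJ and 4 rose on induction. Tcf7, an early T-lineage factor, had log2 fold changes of −4.36 (adjusted p = 0.000387) and 3.24 (adjusted p = 0.00305), and Lck, a T-cell kinase, of −3.96 (adjusted p = 0.00173) and 3.52 (adjusted p = 0.00557). Gata3 fell by 3.09 without RBPJ (adjusted p = 0.00617), and Cd7 rose by 3.80 on induction (adjusted p = 0.00866). Cd3d was at 0 CPM in RBPJ uninduced 1 and RBPJ 6 days induced 2. Of the 8 markers of the sorted fraction, 4 fell without RBPJ, with Notch1 at −3.36 (adjusted p = 0.000186), Hes1 at −4.71 (adjusted p = 0.00196) and Ccr9 at −4.09 (adjusted p = 0.00422). On induction Notch1 rose by 2.59 (adjusted p = 0.000951) and Hes1 by 3.50 (adjusted p = 0.0124). Notch1 and Hes1 are themselves part of the Notch pathway.

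Markers of other blood lineages went the other way. Myeloid and neutrophil markers summed to 581 and 508 CPM in Control, 4371 and 3292 in uninduced and 758 and 1657 in induced libraries, and 5 of 10 rose without RBPJ. Mpo, the granule enzyme of myeloid precursors, rose by 2.81 (adjusted p = 0.00249) and fell by 1.76 (adjusted p = 0.0307), while Cebpa rose from 1.75 and 1.42 CPM to 24.5 and 27.5 (adjusted p = 0.00365) and Ctsg by 3.87 on the log2 scale (adjusted p = 0.00398). Mast cell and basophil markers summed to 83.2 and 69.2 CPM, then 881 and 571, then 335 and 343, with 5 of 6 tested higher without RBPJ. Among these, Gata2 rose by 4.21 (adjusted p = 0.000387) and Hdc by 2.87 (adjusted p = 0.0012), and on induction Hdc fell by 1.83 (adjusted p = 0.0134). Ms4a2, a subunit of the IgE receptor, was at 0.0761 and 0.354 CPM in Control, 30.8 and 14.4 in uninduced and 10.4 and 16 in induced libraries. Erythroid markers summed to 6.2 and 17.9 CPM, then 191 and 533, then 148 and 87.1, and 4 of 8 rose without RBPJ, among them Car1 and Klf1. Of the 8 erythroid log2 fold changes without RBPJ, 7 were above 0 and 1 was below 0 (−1.80). The globin gene Hba-a1 was at 0.348 and 12.8 CPM in the uninduced libraries. B-lineage markers summed to 27.8 CPM in RBPJ uninduced 1 and 737 in RBPJ uninduced 2, against 7.2 to 41.7 in the other 4 libraries, and 1 of 8, Cd79a, was called higher. The members summed to 5539 CPM in RBPJ uninduced 1 and 6070 in RBPJ uninduced 2. Whether any of these lineages contributed to the members' sums was not tested.

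Double-positive thymocyte markers summed to 510.5 CPM in Control 2 and 146 in RBPJ uninduced 2, against 17.7 to 42.3 in the others. Without RBPJ 0 of 7 tested were called by edgeR. An unadjusted p under 0.05 was found for 5 of the 7, against 3419 of all 18174 genes tested. Of the natural killer and innate lymphoid list 2 of 8 rose, Il1rl1 by 5.55 (adjusted p = 0.000568) and Zbtb16 by 2.29 (adjusted p = 0.0424). In the dendritic cell list 5 of 8 log2 fold changes were below 0 (median −0.50), and only Irf8 was called, higher by 2.03 (adjusted p = 0.0106). In the stromal and endothelial list 4 of 7 tested were above 0 (median 0.54), and only Pecam1 was called, lower by 0.80 (adjusted p = 0.0348). Across all genes tested 2.49% were called higher and 2.93% lower without RBPJ. Mitochondrial ribosomal RNA made up 9.26% to 16.5% of the counts, with the highest share in RBPJ uninduced 2. In induced against Control libraries, where 0 members were called, Gata2 was higher by 3.71 (adjusted p = 0.00309) and Il1rl1 by 4.47 (adjusted p = 0.00741), and Ms4a2 (adjusted p = 0.0175) and Car1 (adjusted p = 0.00442) were also called higher. Car1, a carbonic anhydrase of erythroid cells, was at 0.305 and 0 CPM in Control and 91.1 and 50.6 in induced libraries. It does not stand for its list, where 5 of 8 log2 fold changes against Control were above 0 and 3 below 0 (lowest −3.29). The part of these other cells, and of the RNA share, in the levels of the replication genes was not tested.

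**Figure D4:**
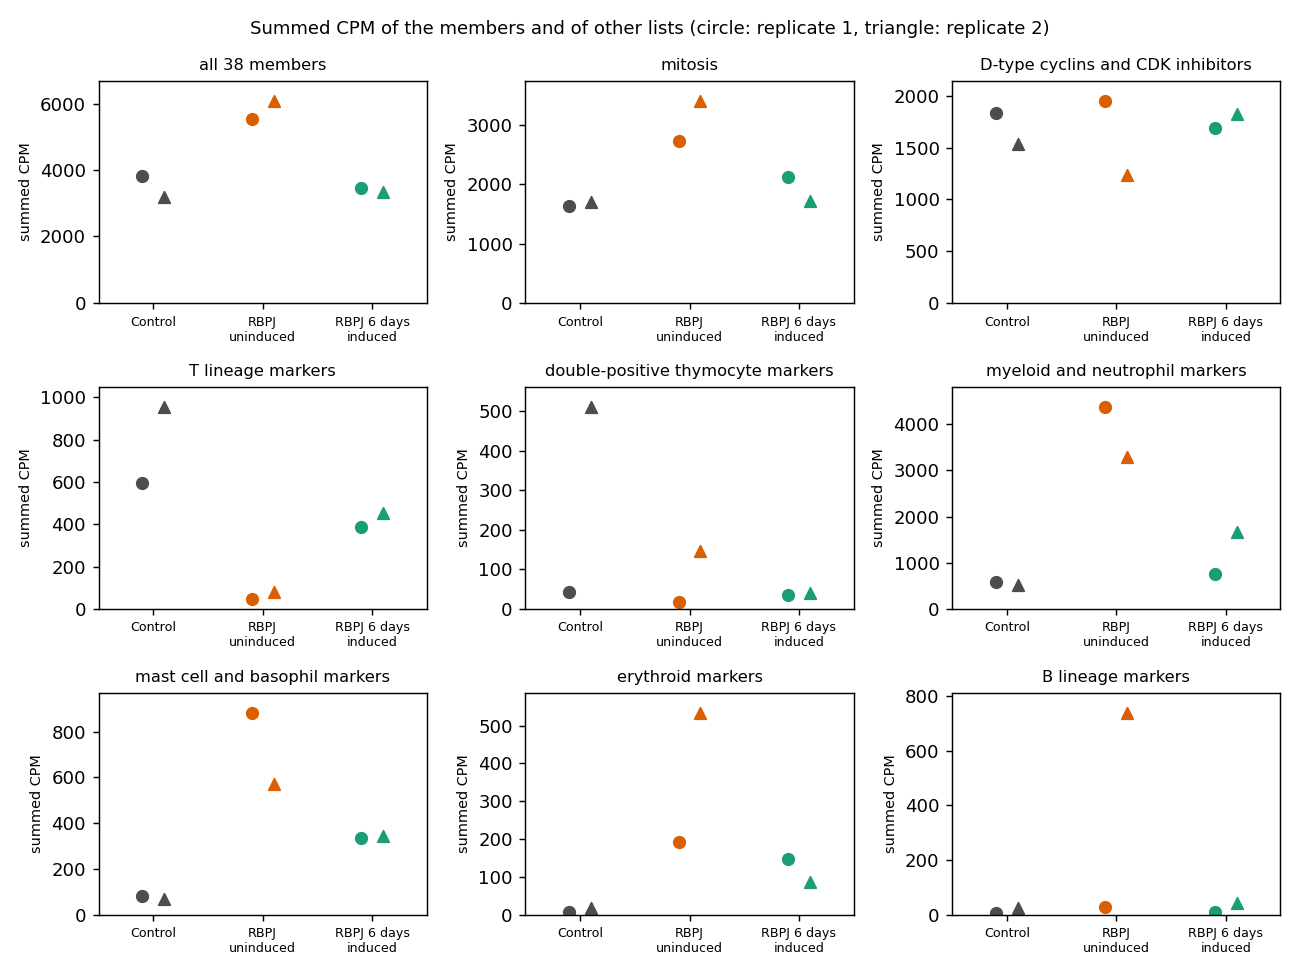
Summed CPM of the 38 members, of the mitotic genes, of D-type cyclins with CDK inhibitors, and of 6 marker lists (each panel from 0), with circles for replicate 1 and triangles for replicate 2. The members' sum is 5539 and 6070 CPM in uninduced libraries and 3195 to 3805 in the other 4, while T-lineage markers are lowest and myeloid and mast cell markers highest in the uninduced libraries.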

How the data were processed

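Per the values, each deposited file gives unnormalized counts, as whole numbers, of the reads of 1 library on Ensembl genes. The submitters' processing notes name HISAT2, StringTie and HTSeq, and mm10 as build, with neither versions nor roles. The sources used here give no strand setting and no annotation release. GENCODE M21 (GRCm38, of which mm10 is another name) held 47224 of the 47729 gene identifiers. Library totals ranged from 5098927 to 12932928, which sets the counting error of low genes such as Ccne1.

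The test was edgeR 4.0.16 in R 4.3.3: filterByExpr (minimum count 10, minimum total 15) kept 18174 genes, TMM scaled the libraries (factors 0.824 to 1.13), and glmQLFit with glmQLFTest fitted a mean per group over all 6 libraries, with 3 residual degrees of freedom. Benjamini-Hochberg adjustment ran over all genes tested and the threshold was 0.05. The standard error is the size of the log2 fold change divided by the square root of F. CPM use the TMM-scaled totals, and RPKM, computed here, divide CPM by the merged exon length in kilobases. On simulated counts with the means and spreads of these libraries the fit recovered the fold sizes, but false calls made up a larger share than the threshold states. No pairing is stated in the labels, and deviations of same-numbered libraries correlated at −0.0407, 0.0253 and 0.0107, so numbers were not treated as pairs.

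The members and all gene lists were chosen with earlier results of these data known. Named are all members called or at the top or bottom of their role group per length, up to 3 called genes with the smallest p of each other list (1 where none was called), and Rbpj. A marker gene that this rule names is not reported here. Alternatives were other scalings and filters, DESeq2 1.42.0, the compared libraries alone, a replicate block and leaving out each library. Promoter sequences are from RefSeq (GRCm38.p6).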

Additional observations from a re-analysis of the deposited data

How the results depend on the processing

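In the first comparison, uninduced against Control, where 13 members were called higher, DESeq2 called 19, scaling by library totals alone 5, and the 4 compared libraries alone 1, with fewer libraries behind the spread. Leaving out each library in turn gave 0 to 15. In induced against uninduced, where 9 were called lower, DESeq2 called 21, library totals alone 3, the 4 compared libraries alone 0, and leaving out each library 0 to 16. A lone library left in a group was assumed to vary like the other groups. The replicate block gave 12 higher and 10 lower and left 0 called in induced against Control, although the numbers do not pair the libraries. DESeq2 size factors gave 12 and 10, no filter on low counts 13 and 13, and the stricter filter 17 and 11. Without the filter the genes called changed, and 10 of the first 13 were kept (Dnmt1, Mcm3 and Mcm7 were lost). No alternative called a member lower in the first comparison, higher in the second, or either way between induced and Control. All 38 log2 fold changes kept their sign in these alternatives, except Mcm6, Orc1 and Rfc3 in the first comparison, each in 1 setting, and the small induced against Control values. The calls over all genes moved as well. The main fit called 452 of all genes higher in the first comparison and 75 lower in the second. DESeq2 called 814 and 492, library totals alone 284 and 34, and the 4 compared libraries alone 93 and 1. They also changed when a library was left out. The cause of the lost calls was not tested. Limits set by depth were not compared between members.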
